A study of Mus musculus with 121 samples.

Results

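Osbpl3, Slc16a5, Mcam, Defb1, Sema3b and Cgref1 are 6 of the 25759 genes of a liver count table, and they are described here in every liver and gonadal adipose library of mice with and without Pepd. They were selected on their measured counts: as genes outside the extracellular matrix that lay lower in knockout (KO) than in wild-type (WT) livers on the Alios diet, most of them also on a high-fat diet (HFD). Every value drawn from the KO and WT libraries on those diets is therefore a description with no test. Tests are given where those libraries are not among the groups compared: in liver on chow, in heterozygous (HET) mice, and in adipose tissue. The edgeR tests in liver still share their expression filter and estimate of spread with those libraries, because the groups were fitted together.

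RNA was sequenced from the liver and the gonadal fat of C57BL/6 mice of 3 genotypes, WT, HET and KO. The targeted gene appears as PEP in the labels and is read here as Pepd, on the basis of what is known of the study. All mice ate their diet for 18 weeks from 8 weeks of age. Chow held 10% of its calories as lipid, the HFD is labelled 45%, and the labels do not give the composition of the Control and Alios diets or the design of the allele. Liver was read in 5 WT, 8 HET and 5 KO mice on chow, in 8, 11 and 9 on HFD, in 5, 4 and 1 on Control, and in 6, 5 and 8 on Alios. The fat libraries numbered 4 WT, 8 HET and 5 KO on chow, with 8, 11 and 9 on HFD, largely in the same mice as liver.

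Pepd encodes prolidase, which splits dipeptides that end in proline or hydroxyproline and so releases proline from broken-down collagen. The 6 genes share no pathway and act at different places in the cell. Osbpl3 belongs to the oxysterol-binding protein family, which moves sterols and phospholipids between membranes in contact. Slc16a5 is a carrier of the monocarboxylate transporter family in the plasma membrane. Mcam, also known as CD146, is an immunoglobulin-family adhesion molecule of endothelial cells and pericytes. Defb1, a beta-defensin, Sema3b, a class 3 semaphorin that signals through neuropilins and plexins, and Cgref1, an EF-hand protein, are secreted.

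The 75 liver libraries held 42692 to 8854246 counts, with a median of 3191160, and the 45 adipose libraries 4236655 to 6699887. The lowest total was that of liver Alios KO replicate 8, where 1 read is worth 20.8 CPM (a library's counts scaled to a common total); the second lowest was 1027087. That library held 1 read of Osbpl3 and 0 reads of the other 5 genes, so Alios KO values are also given for the other 7 mice. In liver, Pepd stood between 31.4 and 64.3 CPM in WT libraries and at 3.06 CPM or less in KO libraries. HET mice held 15.4 to 35.7 CPM, except HFD replicate 8 at 1.26 CPM, a level of the KO libraries; it is called the mouse labelled HET below. Albumin (Alb) was at 20900 CPM or more in every liver library, and the adipocyte marker Adipoq was at 467 CPM or more in every adipose library. Of the bile-duct markers, Krt7, Krt19 and Epcam had liver medians of 0.597, 0.575 and 0.887 CPM, while Spp1, which other cells also make, had a median of 47.3 and reached 321. The summed list of 10 bile-duct markers was 41.7 to 197 CPM in WT and 54.1 to 83.5 in KO livers on HFD, and 65.7 to 227 against 41.6 to 93.7 on Alios; its part in the values below was not tested. In bulk tissue, fewer cells of a type and less RNA per cell cannot be told apart.

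In the KO and WT livers that chose them, all 6 genes lay lower without Pepd on both fatty diets. On Alios, the log2 fold change of KO against WT was -2.74 ± 0.42 (SE) for Slc16a5, -2.53 ± 0.50 for Osbpl3, -2.06 ± 0.43 for Defb1, -1.65 ± 0.36 for Sema3b, -1.30 ± 0.28 for Cgref1 and -1.06 ± 0.22 for Mcam. On HFD it was -2.19 ± 0.46 for Defb1, -2.02 ± 0.38 for Sema3b, -1.69 ± 0.41 for Osbpl3, -1.40 ± 0.38 for Cgref1, -1.15 ± 0.39 for Slc16a5 and -0.68 ± 0.17 for Mcam. For each of the 6 genes, 9 of 9 KO mice on HFD and 8 of 8 on Alios lay below the WT mean. The threshold behind the choice, an edgeR adjusted p under 0.05, was met by 6 of 6 genes on Alios, where 0.103% of 11595 genes met it as lower, and by 5 of 6 on HFD, where 1.15% of 11064 did. Slc16a5 missed it on HFD. Just inside it on Alios stood Cgref1 at an adjusted p of 0.042 and Sema3b at 0.043, and just outside it Gsta4 at 0.051 and Birc2, Col6a3 and Sult1a1 at 0.055.

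How many of the 6 met that threshold rested on single mice, while every log2 fold change kept its sign. On Alios the count of 6 became 1 without WT replicate 1 or KO replicate 7, 2 without WT replicate 3 or KO replicate 1, 4 or 6, and 3 without KO replicate 5. The HFD count of 5 became 1 without WT replicate 5, and 3 without WT replicate 7 or KO replicate 3 or 8. Over all settings tried, the log2 fold change on Alios ranged from -2.99 to -2.47 for Slc16a5, from -2.99 to -2.30 for Osbpl3 and from -1.18 to -0.96 for Mcam.

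**Figure D1:**
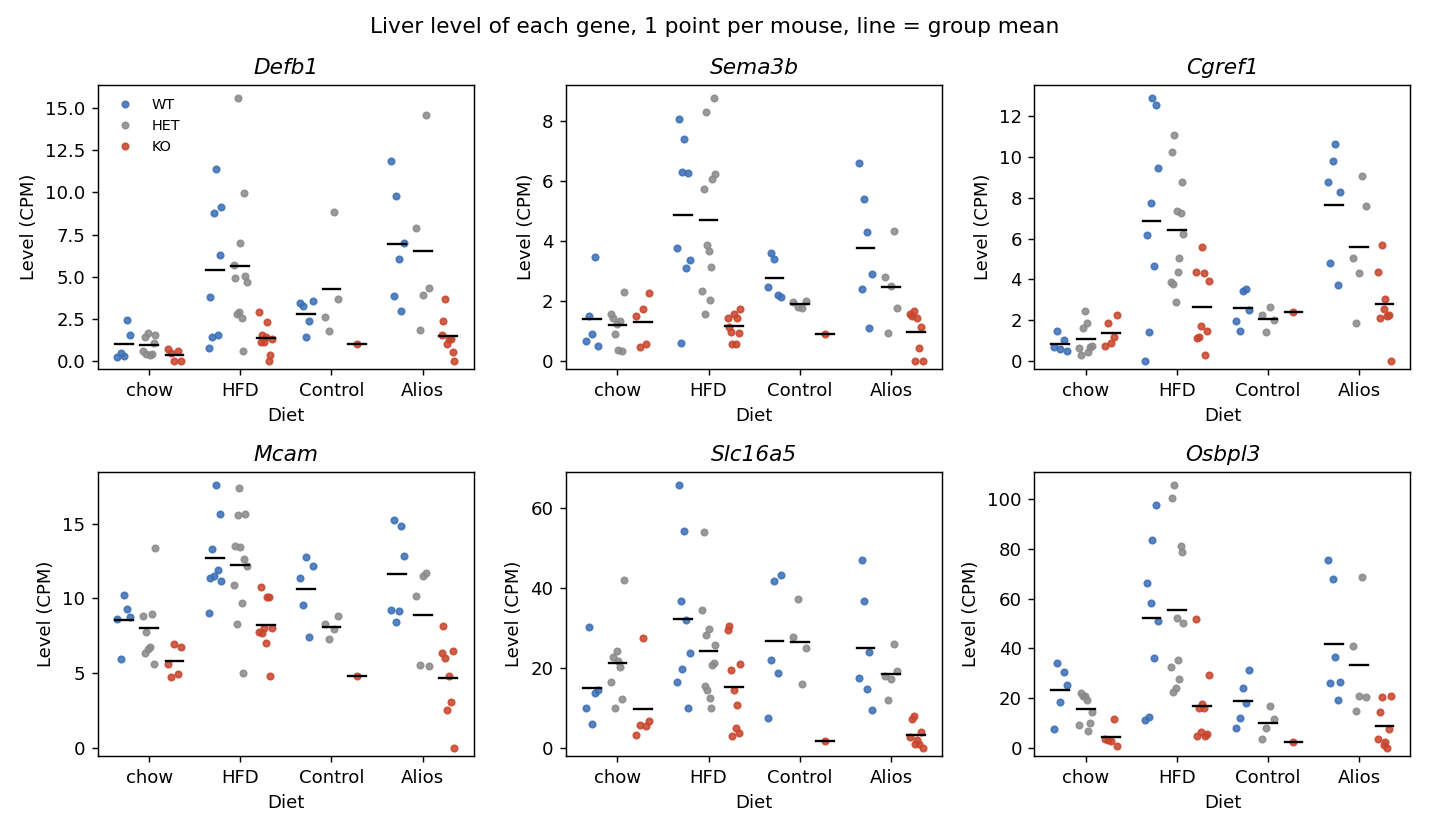
Level of each gene in liver in CPM (linear axis), 1 point per mouse by diet and genotype, with lines at group means. On HFD and Alios the KO mean line lies below the WT line in every panel, with overlapping points, and for Osbpl3 4 of 5 KO points on chow lie below every WT point.

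Osbpl3 covered the widest range of levels. In WT livers on chow the 5 mice stood at 7.50, 34.3, 18.7, 30.4 and 25.2 CPM, and the 5 KO mice at 3.73, 3.31, 2.61, 11.6 and 0.752 CPM. Of the KO mice, 4 lay below every WT mouse, and the highest lay above the lowest WT mouse. On Alios the lowest, median and highest levels were 19.3, 31.6 and 75.4 CPM in WT and 0, 3.56 and 20.4 CPM in the 7 deeper KO libraries, and HET mice stood at 40.9, 14.8, 20.8, 68.9 and 20.5 CPM. On HFD they were 11.3, 54.7 and 97.6 CPM in WT, 22.4, 50.3 and 105.8 in HET and 4.62, 15.96 and 51.7 in KO. The groups overlapped on HFD, where KO replicate 1 at 51.7 CPM lay close to the WT median.

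On Control, WT mice held 7.90, 12.2, 24.2, 18.2 and 31.5 CPM of Osbpl3, HET mice 3.43, 7.98, 16.8 and 11.7, and the KO mouse 2.54. By mean, the order ran from HFD HET (55.5 ± 31.0 CPM, SD, n = 11), HFD WT (52.1 ± 31.2, n = 8), Alios WT (41.9 ± 23.8, n = 6) and Alios HET (33.2 ± 22.3, n = 5) to chow KO (4.40 ± 4.19, n = 5) and the Control KO mouse. In between lay chow WT (23.2), Control WT (18.8), HFD KO (16.9), chow HET (15.5), Control HET (9.98) and Alios KO (8.76 CPM). No neighbours in this order differed by more than the larger of their SDs.

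The gene lies on chromosome 6 from 50293330 to 50456201, minus strand, in GRCm38. The sequence before its start is shown beside that of Cgref1, because the levels of these genes followed each other most closely among HET mice on HFD, as given below. Both are read 5′ to 3′ on the gene's strand from RefSeq promoter entries of GRCm38.p6 and end where the GENCODE M21 exon begins, at chr6:50456202-50456420 for Osbpl3 and chr5:30945592-30945730 for Cgref1. Capitals mark a GC box (GGGCGG) or CCAAT box (CCAAT), searched on both strands.
Osbpl3: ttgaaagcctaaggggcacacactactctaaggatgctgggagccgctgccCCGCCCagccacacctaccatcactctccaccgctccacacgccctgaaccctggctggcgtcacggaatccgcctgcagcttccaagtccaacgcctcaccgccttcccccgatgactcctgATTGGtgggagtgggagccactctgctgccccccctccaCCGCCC
Cgref1: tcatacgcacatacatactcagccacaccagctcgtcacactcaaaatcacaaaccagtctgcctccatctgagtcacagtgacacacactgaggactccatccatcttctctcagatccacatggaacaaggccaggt

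In the 250 bases before the RefSeq start, Osbpl3 has GC boxes 199, 37 and 18 bases and a CCAAT box 76 bases upstream, and Cgref1 has GC boxes 79 and 28 bases upstream. The nearest 31 bases of the Osbpl3 window and 111 of the Cgref1 window lie inside the GENCODE exon, so the Osbpl3 box at 18 and both Cgref1 boxes are exonic and not printed. Of 32851 mouse promoter windows of that length, 32.7% hold a GC box and 33.8% a CCAAT box. Neither of these windows holds a TATA box (TATAAA, in 12.4% of windows), an E-box (CACGTG, in 6.02%) or the nuclear receptor half-site AGGTCA (in 14%). Cgref1 has another RefSeq start, whose window holds GC boxes 132, 81 and 34 bases and an E-box 43 bases upstream. Mcam, the remaining gene with an entry, has 5 GC boxes. Defb1, Sema3b and Slc16a5 had no entry. These matches are a description of the sequence.

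Slc16a5 had the steepest difference on Alios. The WT mice there held 9.49, 20.8 and 46.9 CPM (lowest, median, highest), the HET mice 18.0, 12.0, 17.2, 25.9 and 19.2, and the 7 deeper KO libraries 0.879, 2.77 and 8.03. Each of these 7 KO mice lay below every WT and HET mouse. On HFD the levels were 9.92, 27.8 and 65.8 CPM in WT, 10.1, 21.2 and 54.1 in HET and 2.87, 14.6 and 30.4 in KO, so the genotypes overlapped widely. The KO mouse on Control held 1.80 CPM, against 7.40, 22.1, 41.8, 18.7 and 43.3 in WT and 27.7, 37.4, 15.96 and 25.1 in HET mice.

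On chow, WT mice held 9.998, 30.4, 6.02, 13.8 and 14.4 CPM of Slc16a5 and KO mice 3.36, 5.67, 27.4, 5.52 and 6.77. Of the KO mice 3 lay below every WT mouse, the fourth at 6.77 CPM lay just above the lowest WT mouse, and KO replicate 3 at 27.4 CPM stood apart. Group means ran from 32.3 ± 19.3 CPM in HFD WT (n = 8) down to 3.25 ± 2.97 in Alios KO (n = 8) and the Control KO mouse, and no neighbours differed beyond their spread. Slc16a5 lies on chromosome 11 from 115462474 to 115474398, plus strand. It shares 104 exonic bases with an antisense gene, Gm11695, and the strand setting of the counting is not given in the sources used here.

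Mcam varied least. On Alios the WT mice held 8.39, 11 and 15.2 CPM (lowest, median, highest), the HET mice 10.1, 5.55, 11.5, 11.7 and 5.49, and the 7 deeper KO libraries 2.57, 6.02 and 8.13. The KO and WT mice did not overlap on Alios, whereas 3 of 5 HET mice lay above every KO mouse. On HFD the levels were 9.04, 11.7 and 17.6 CPM in WT, 5.03, 12.6 and 17.4 in HET and 4.81, 8.05 and 10.8 in KO. On chow, WT mice held 8.64, 5.97, 10.2, 9.32 and 8.73 CPM and KO mice 5.59, 4.72, 6.96, 4.94 and 6.77, and the KO mouse on Control held 4.79 against 7.41 to 12.8 in WT mice.

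Because Mcam marks blood vessels, its levels are set beside 11 endothelial markers. None of the 11 met the threshold between KO and WT on HFD or on Alios, and their summed level was 348.4 to 445 CPM in KO and 357.9 to 494 in WT on HFD, and 312.1 to 414 against 343 to 476 on Alios. Pecam1 and Cdh5 were present in every liver library, at 12.7 CPM or more and 16.1 CPM or more. The part of endothelial RNA in the Mcam difference was not tested. Mcam lies on chromosome 9 from 44134469 to 44142727, plus strand, and shares 17 exonic bases with the antisense gene Gm10687.

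Defb1 was read in few counts on chow, and its WT means were 0.9965 CPM there, 2.82 on Control, 5.39 on HFD and 6.92 on Alios. WT mice on chow held 0.227, 0.498, 0.301, 2.42 and 1.54 CPM and KO mice 0.746, 0.472, 0, 0.581 and 0, so that the 2 groups overlapped at this depth. On HFD the levels were 0.754, 5.03 and 11.4 CPM in WT (lowest, median, highest), 0.629, 4.92 and 15.6 in HET and 0, 1.31 and 2.90 in KO. On Alios they were 2.97, 6.52 and 11.8 CPM in WT and 0.569, 1.32 and 3.68 in the 7 deeper KO libraries, with HET mice at 7.88, 1.85, 3.94, 14.6 and 4.36. The highest KO mouse on Alios overlapped the lowest WT mouse. Defb1 lies on chromosome 8 from 21776599 to 21795185, plus strand.

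Sema3b and Cgref1 also were at low levels on chow. For Sema3b, the WT and KO means on chow were 1.41 ± 1.20 and 1.31 ± 0.77 CPM (n = 5 each), while on HFD they were 4.86 ± 2.54 (n = 8) and 1.16 ± 0.42 (n = 9). On Alios, Sema3b stood at 3.78 ± 2.03 CPM in WT (n = 6) and 1.11 ± 0.64 in the 7 deeper KO libraries, with 1 of these at 0. Only 3 of 8 KO mice on Alios lay below every WT mouse for Sema3b, 1 of them the library of lowest total. For Cgref1, WT and KO mice on chow averaged 0.865 ± 0.40 and 1.38 ± 0.66 CPM, on HFD 6.86 ± 4.74 and 2.67 ± 1.87, and on Alios 7.65 ± 2.79 and, in the 7 deeper KO libraries, 3.18 ± 1.35. WT replicate 1 on HFD had 0 reads of Cgref1, so the lowest mouse of that diet was WT. Sema3b lies on chromosome 9 from 107597674 to 107609229 and Cgref1 on chromosome 5 from 30933143 to 30945591, both on the minus strand.

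Per kilobase of exon, mean levels in WT livers on HFD were 8.74 CPM for Slc16a5, 6.18 for Defb1, 5.78 for Osbpl3, 3.79 for Mcam, 3.29 for Cgref1 and 1.02 for Sema3b. The lone KO mouse on Control held 1.05 CPM of Defb1, 0.898 of Sema3b and 2.39 of Cgref1. The mouse labelled HET was the lowest of 11 HET mice on HFD for Defb1 (0.629 CPM), Mcam (5.03) and Slc16a5 (10.1). Its Osbpl3 (27.7 CPM), Cgref1 (5.03) and Sema3b (3.14) lay within the range of the other 10.

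On chow, which the choice of genes did not use, none of the 6 genes passed the test between KO and WT livers. Osbpl3 came nearest, with a log2 fold change of -2.08 ± 0.70 (95% interval -3.46 to -0.71, edgeR adjusted p = 0.078) and 5 of 5 KO mice below the WT mean. Lower calls made up 0.931% of all 11064 genes tested. Without adjustment 2 of the 6, Osbpl3 and Mcam, had p under 0.05, and DESeq2 called 1, Osbpl3 (log2 -2.32, adjusted p = 0.011). Osbpl3 also passed the edgeR test without WT replicate 1 (adjusted p = 0.049) or without KO replicate 4 (log2 -2.93, adjusted p = 0.026). Of 19 alternative settings, 16 left it uncalled, with edgeR adjusted p up to 0.22.

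Mcam differed by -0.56 ± 0.26 on the log2 scale on chow (interval -1.08 to -0.05, edgeR adjusted p = 0.22), with 5 of 5 KO mice below the WT mean. The other genes were further from the threshold: the log2 fold change was -1.04 ± 1.11 for Defb1 (adjusted p = 0.64), -0.50 ± 0.60 for Slc16a5 (adjusted p = 0.69), -0.16 ± 0.67 for Sema3b (adjusted p = 0.93) and 0.65 ± 0.85 for Cgref1 (adjusted p = 0.73). These intervals are wide. That of Defb1 ran from -3.21 to 1.13 and holds the sizes seen on HFD and Alios, as do those of Osbpl3 and Mcam. Those of Sema3b (-1.47 to 1.15) and Cgref1 (-1.02 to 2.31) hold neither size. That of Slc16a5 (-1.68 to 0.68) holds the size on HFD but not that on Alios. The sizes on HFD and Alios come from the libraries of the choice, so this is a description. The KO difference on HFD less that on chow, given as a description because it uses the libraries of the choice, ran from -2.04 ± 0.95 for Cgref1 to 0.39 ± 0.83 for Osbpl3 on the log2 scale.

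KO livers were also set against HET livers on chow. None of the 6 genes passed, where 5.61% of all genes were called lower in edgeR. Osbpl3 stood at -1.55 ± 0.66 on the log2 scale (edgeR adjusted p = 0.10), Slc16a5 at -1.08 ± 0.53 (adjusted p = 0.15) and Mcam at -0.48 ± 0.24 (adjusted p = 0.16). These 3 had an unadjusted p under 0.05, and DESeq2 called Osbpl3 (adjusted p = 0.023). In edgeR, Osbpl3 passed without KO replicate 4 (adjusted p = 0.04), and Slc16a5 without KO replicate 3 (log2 -2.02, adjusted p = 0.036). Of 14 alternative settings, 11 left Osbpl3 uncalled and 13 left Slc16a5 uncalled. Markers of other cells moved with both chow comparisons. Of 13 macrophage markers 9 rose in KO against WT and 12 against HET, among them Tyrobp (3.32-fold, edgeR adjusted p = 0.0014, and 3.77-fold, adjusted p = 1.6e-05), and their sum was 468 to 2085 CPM in KO, 345.3 to 630 in WT and 197 to 714 in HET. Both neutrophil markers tested rose in each, S100a9 by 4.5-fold against WT (adjusted p = 0.042) and 11.9-fold against HET (adjusted p = 0.00017). Of 10 hepatocyte markers Alb was 1.55-fold lower than in HET (adjusted p = 0.036) and none passed against WT, and their sum was 51840 to 125300 CPM in KO, 101200 to 140000 in WT and 100700 to 141000 in HET. Against HET, 2 of 11 endothelial and 1 of 4 smooth muscle markers also fell. The part of these cells in the values of the 6 genes was not tested.

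No test told HET and WT livers apart by any of the 6 genes. On chow 0% of all genes were called between HET and WT, and on Control 0.00862%; none of the 6 was among them, none had an unadjusted p under 0.05, and DESeq2 called none. For Osbpl3, HET livers differed from WT by -0.53 ± 0.51 on chow and by -1.21 ± 0.66 on Control on the log2 scale, with 8 of 8 and 4 of 4 HET mice below the WT mean and intervals of -1.53 to 0.46 and -2.49 to 0.08. For Sema3b on Control the difference was -0.51 ± 0.43 (interval -1.36 to 0.33), with 4 of 4 HET mice below every WT mouse. On the fatty diets, given as a description, HET less WT ranged over the 6 genes from -0.43 to 0.08 on HFD and from -0.51 to 0.05 on Alios. KO against HET on HFD ran from -2.18 for Defb1 to -0.57 for Mcam, and on Alios from -2.33 for Slc16a5 to -0.73 for Mcam.

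The HFD raised 5 of the 6 genes in HET livers, in libraries that had no part in choosing them. Higher calls made up 6.97% of all 11064 genes in this comparison of 11 mice on HFD with 8 on chow. Defb1, Sema3b and Cgref1 reached 1.65, 2.29 and 2.48 CPM at most in those 8 chow mice. They passed the expression filter through livers on HFD, so the filter favoured a rise for them. Each was called in all 10 alternative settings. The fit with no filter on low counts does not remove this favour, because the genes were chosen on livers on fatty diets. The count of 5 includes them. Cgref1 rose 5.98-fold (log2 2.58 ± 0.43, edgeR adjusted p = 6.3e-05), with 11 of 11 mice on HFD above every mouse on chow. Its levels were 2.89, 6.21 and 11.1 CPM (lowest, median, highest) on HFD and 0.288, 0.732 and 2.48 on chow. Defb1 rose 6.31-fold (log2 2.66 ± 0.48, adjusted p = 0.00019), with 10 of 11 mice above every chow mouse, the exception being the mouse labelled HET.

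Osbpl3 rose 3.64-fold with the HFD in HET livers (log2 1.86 ± 0.40, edgeR adjusted p = 0.0013), from 6.72, 16.9 and 22.1 CPM on chow to 22.4, 50.3 and 105.8 on HFD, so that the 2 groups did not overlap. Sema3b rose 3.71-fold (log2 1.89 ± 0.37, adjusted p = 0.00056), with 9 of 11 mice above every chow mouse. Mcam rose 1.47-fold (log2 0.56 ± 0.17, adjusted p = 0.018), with 10 of 11 above the chow mean and 5 of 11 above every chow mouse. Slc16a5 stood at 0.21 ± 0.36 on the log2 scale (interval -0.50 to 0.92, adjusted p = 0.76). Without the mouse labelled HET the same count of 5 genes was called.

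**Figure D2:**
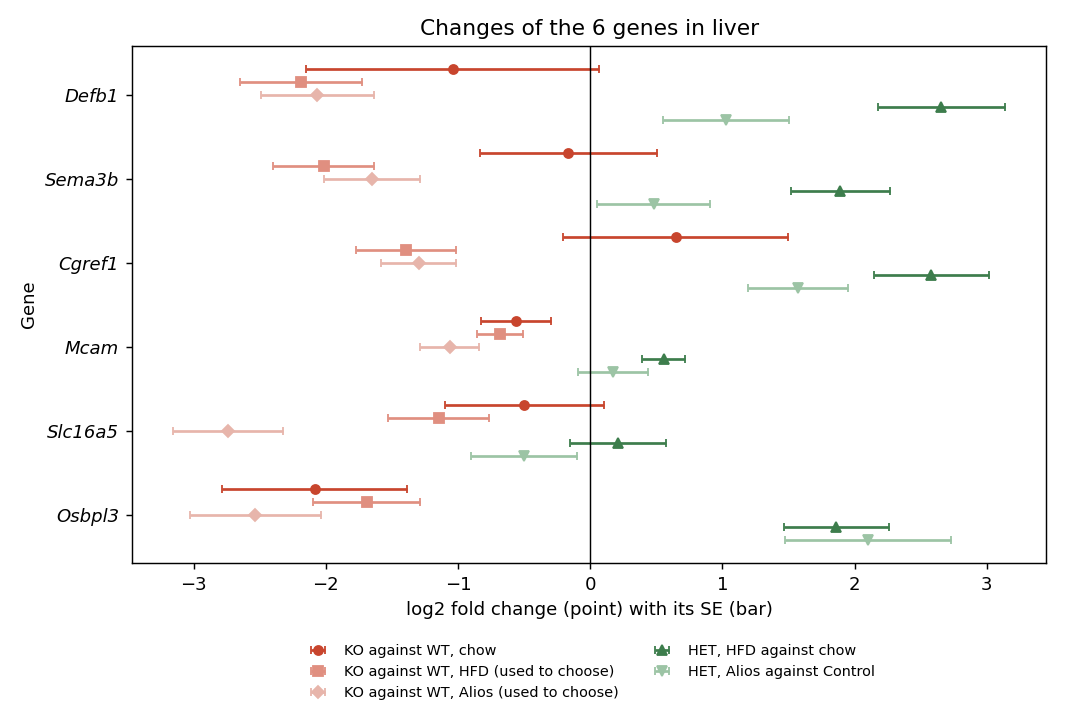
Log2 fold change of each gene in liver (horizontal axis; points, with bars of 1 SE) in 5 comparisons: KO against WT on chow, HFD and Alios, and the fatty diets against their chow or Control in HET mice. Reds, KO against WT, lie left of 0 except for Cgref1 on chow, and greens, diet in HET mice, lie right of 0 except for Slc16a5 on Alios.

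Other genes moved with the HFD in the same HET livers. Of 17 lipid droplet and Pparg genes tested, none of them among the 6, 11 rose and none fell; their median log2 fold change was 0.646, against -0.00548 over all genes. Plin2, a coat protein of lipid droplets, rose 2.38-fold (edgeR adjusted p = 4.2e-06), Plin4 4.88-fold (adjusted p = 5e-04) and Fitm2, which acts in droplet formation, 1.57-fold (adjusted p = 0.00067). Of 12 stellate and fibroblast markers, 8 rose and 1 fell, with Col1a1 up 3.20-fold (adjusted p = 0.002), and their summed level was 530 to 905 CPM on HFD and 387 to 626 on chow. Of 11 endothelial markers 3 rose, and their sum was 415 to 506.2 CPM against 354 to 414. Of 13 macrophage markers 2 rose, Gpnmb 17.8-fold (adjusted p = 0.00025) and Trem2 6.47-fold (adjusted p = 0.00046), with a sum of 378 to 684 CPM against 197 to 714. Of 10 hepatocyte markers 3 fell, Tat 2.26-fold (adjusted p = 0.004), Serpina1c 1.65-fold (adjusted p = 0.01) and Cps1 1.61-fold (adjusted p = 0.036). The part of these cells in the rise of the 6 genes was not tested.

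The Alios diet gave no call among the 6 genes in HET livers. In 5 Alios and 4 Control mice, Cgref1 stood 2.98-fold higher (log2 1.57 ± 0.38, edgeR adjusted p = 0.071), with 4 of 5 mice above every Control mouse, and passed without Alios replicate 2 (adjusted p = 0.039). Osbpl3 stood 4.29-fold higher (log2 2.10 ± 0.63, adjusted p = 0.14) and Defb1 2.04-fold higher (log2 1.03 ± 0.48, adjusted p = 0.35). These 3 had an unadjusted p under 0.05, DESeq2 called none, and higher calls made up 0.138% of 11595 genes. Slc16a5 stood at -0.50 ± 0.40 on the log2 scale (adjusted p = 0.67), with 5 of 5 Alios mice below the Control mean.

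The diet values of WT and KO livers, which share the libraries of the choice, are given side by side with no test. HFD against chow in WT was 3.08 for Cgref1, 2.66 for Defb1, 1.80 for Sema3b, 1.25 for Osbpl3, 1.22 for Slc16a5 and 0.58 for Mcam on the log2 scale. In KO livers it was 1.04, 1.51, -0.05, 1.64, 0.58 and 0.46 in the same order of genes. Alios against Control in WT was 1.52 for Cgref1, 1.35 for Defb1, 1.16 for Osbpl3, 0.47 for Sema3b, 0.14 for Mcam and -0.06 for Slc16a5.

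Among the 11 HET mice on HFD, several of the genes varied together. Of 21 relations computed (15 pairs of the 6 genes, and each gene with the mean log2 level of the lipid droplet and Pparg genes), all had a positive Pearson r, and 9 had a permutation p under 0.05 after Benjamini-Hochberg adjustment over the 21. Such relations were not computed for the other genes of these livers, so the share of all genes with values this high is not known. Osbpl3 followed the lipid droplet genes with r = 0.972 (permutation p = 1e-05, the smallest the resamples can give, adjusted p = 0.00021) and Spearman rho = 0.945 (permutation p = 3e-05). Without the 2 mice farthest from the median of Osbpl3, r was 0.976. Cgref1 and Osbpl3 had r = 0.949 (permutation p = 5e-05, adjusted p = 0.00053, rho = 0.936 with permutation p = 7e-05), and r = 0.935 without the 2 farthest mice.

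Cgref1 and Sema3b also followed the droplet score, with r = 0.909 (permutation p = 0.00016, adjusted p = 0.00112, rho = 0.90 with p = 0.00028) and r = 0.886 (permutation p = 0.00052, adjusted p = 0.00273, rho = 0.845 with p = 0.00193). Without the 2 farthest mice these were 0.911 and 0.83. Mcam and Slc16a5 had r = 0.57 and 0.537 with it, with adjusted permutation p of 0.0888 and 0.103. Defb1 and Mcam, at r = 0.733 (adjusted permutation p = 0.0352), rested on few mice, since r was 0.277 without the 2 farthest and 0.413 without the mouse labelled HET. The droplet score had r = 0.106 with log2 total counts over these 11 libraries. The relation of the genes themselves to depth, and the part of depth in these values, were not tested. The score and the genes come from the same libraries. In the 7 mice numbered under 450, 3 of the 21 relations passed.

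**Figure D3:**
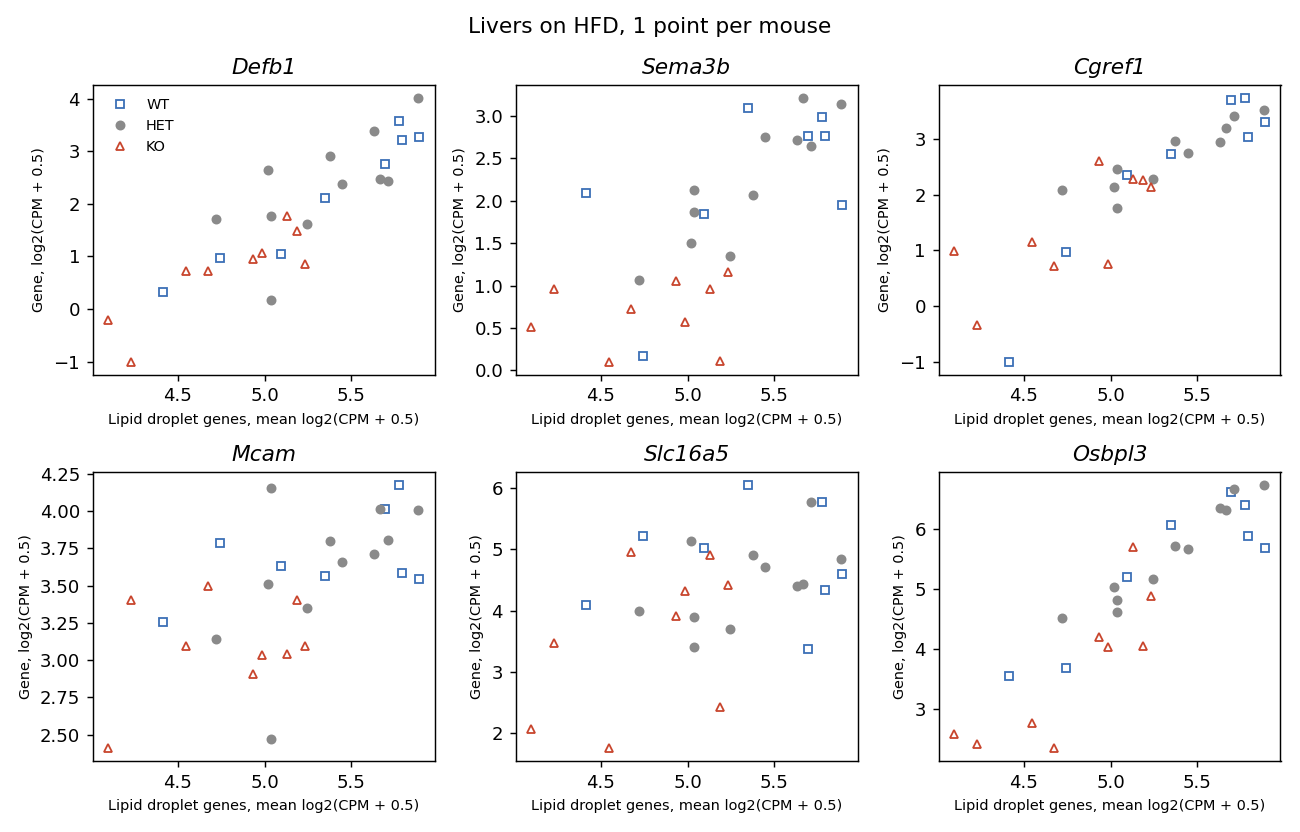
Level of each gene, log2(CPM + 0.5), against the mean log2(CPM + 0.5) of the lipid droplet and Pparg genes in livers on HFD, 1 point per mouse, for 8 WT (squares), 11 HET (filled circles) and 9 KO mice (triangles). The HET points of Osbpl3 lie nearly on a line (r = 0.972), and those of Slc16a5 scatter (r = 0.537).

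Over the 11 liver groups with more than 1 mouse, the mean pattern of the 6 genes was most like those of Hsd17b13, Anxa4 and Col14a1 (Pearson r = 0.957 each, among 11726 genes), followed by Gpat3, Lrrc39, Slc35f5, Tmem237, Ccdc80, Bhlhb9 and Matn2 (r = 0.939 or more). Hsd17b13, an enzyme of the lipid droplet surface, is in the droplet list. For single genes the closest were Trp53i11 for Osbpl3 (r = 0.965), Wdr41 for Slc16a5 (0.964), Egln1 for Mcam (0.963), Rtn4 for Defb1 (0.977), Col1a1 for Sema3b (0.967) and Anxa5 for Cgref1 (0.965). Between the 6 genes, r over these groups ran from 0.326 for Cgref1 and Slc16a5 to 0.889 for Mcam and Slc16a5. The groups include those that chose the genes, so these values are a description.

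The families of the 6 genes give a frame for their values. In the HET comparison of HFD with chow, 2 of 9 class 3 semaphorins and receptors rose, Sema3b and Nrp2, a neuropilin (1.5-fold, edgeR adjusted p = 0.0089). Of 11 oxysterol-binding proteins, Osbpl3 and Osbpl5 (1.89-fold, adjusted p = 0.018) rose. Of 12 monocarboxylate transporters and partners 4 rose, Slc16a5 not among them, with Slc16a7 up 1.80-fold (adjusted p = 0.0054) and Slc16a13 2.08-fold (adjusted p = 0.027). Defb1 was the 1 of 7 antimicrobial peptide genes that rose. Between KO and WT on chow, Slc16a7 fell 2.04-fold (adjusted p = 0.047) and Slc16a12 1.83-fold (adjusted p = 0.04), and no oxysterol-binding protein or semaphorin gene passed. Between KO and WT on Alios, given as a description, each of the 6 genes was the only member of its family list to meet the threshold. The 6 were chosen by that threshold, and only 0.224% of 11595 genes met it. Sparcl1 of the EF-hand list lay outside it at -1.44 ± 0.35. On HFD, where 1.72% of 11064 genes met it, other members did too, namely Nrp2 (-0.65 ± 0.17), the adhesion molecule F11r (-0.37 ± 0.10) and Sparcl1 (-1.55 ± 0.31).

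In HFD livers, values that move with the choice of genes are given without a test. Lower in KO than WT at the threshold were 5 of 17 droplet and Pparg genes, among them Pparg (log2 -0.95 ± 0.24), Cidea (-2.81 ± 0.75) and Plin2 (-0.64 ± 0.18), and 4 of 12 stellate and fibroblast markers, with Col1a1 at -1.92 ± 0.38. Summed stellate and fibroblast markers reached 631 CPM at most in KO and 961 in WT. On Alios none of either list met the threshold, and the droplet list's median log2 was -0.444 against -0.00809 over all genes. Their part in the values of the 6 genes was not tested.

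In adipose tissue on HFD none of the 6 genes passed the edgeR test between KO and WT, where 0.0344% of 14536 genes did, nor between KO and HET (0.0138%). Slc16a5 alone had an unadjusted p under 0.05 against WT and none of the 6 against HET, and DESeq2 called none in either. Osbpl3 in adipose tissue on HFD stood at 19.7 ± 8.80 CPM in WT, 19.8 ± 4.52 in HET and 16.3 ± 5.14 in KO, with a KO against WT log2 fold change of -0.27 ± 0.25 (interval -0.77 to 0.22, edgeR adjusted p = 0.76). The interval does not reach the size described in liver on HFD. That size comes from the libraries of the choice, so no difference between the tissues is drawn from it. Pepd was 28.8-fold lower in KO than in WT liver on HFD. In adipose tissue on HFD it was 4.09-fold lower, at means of 25.35 against 103.5 CPM. The mouse labelled HET is HET replicate 3 of this tissue, where its Pepd, at 21.6 CPM, again lay within the KO range (15.4 to 35.8). Without it 0 of the 6 genes were called between KO and HET or HET and WT on HFD, and 3 between HFD and chow in HET mice, the same numbers as with it. HET and WT adipose tissue gave no call on chow (0% of all genes) or on HFD (0.00688%), with unadjusted p under 0.05 for 0 and 1 of the 6 genes and no DESeq2 call.

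In adipose tissue on chow, 1 of the 6 genes was called between KO and WT, where 15% of all genes were. Between KO and HET 2 were called, Mcam lower and Slc16a5 higher, where 32.4% of all genes were. Both counts are near the share over all genes. Mcam was at 628, 737, 993 and 896 CPM in WT and at 278, 524.5, 1012, 204 and 212 in KO mice, so that 4 of 5 KO mice lay below every WT mouse and KO replicate 3 above. It was 1.82-fold lower than in WT (log2 -0.86 ± 0.31, edgeR adjusted p = 0.049, where 15% of genes were called) and 2.01-fold lower than in HET (log2 -1.01 ± 0.27, adjusted p = 0.0043, where 32.4% were called). The call against WT was lost without WT replicate 3, 4 or 5, without KO replicate 1, 4 or 5, and in a fit of only the 2 groups (adjusted p = 0.49), which also lost the call against HET (adjusted p = 0.079). Without KO replicate 3 it stood at log2 -1.40 (adjusted p = 0.00023). Summed endothelial markers were 1075 to 2299 CPM in KO and 959 to 2321 in WT adipose tissue on chow, where 1 of 11, Lyve1, rose. Summed smooth muscle markers were 354 to 1284 CPM in KO, 871 to 1148 in WT and 586.4 to 3768 in HET; none of 6 passed against WT, and Acta2 was 2.64-fold lower than in HET (edgeR adjusted p = 0.03).

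Markers of several other cell types moved with the KO of adipose tissue on chow. Against WT, 3 of 3 neutrophil markers rose (S100a9 77.7-fold, edgeR adjusted p = 0.00011), as did 4 of 9 lymphocyte markers (Cd79a 22.6-fold, adjusted p = 0.00087), 5 of 13 macrophage markers (C1qa 2.92-fold, adjusted p = 0.009) and 2 of 11 stellate and fibroblast markers (Col1a2 2.96-fold, adjusted p = 0.0095), and 1 of 8 adipocyte markers fell (Lep 3.65-fold, adjusted p = 0.021). Their sums in KO and WT were 19.1 to 688 and 11.8 to 40.9 CPM for neutrophils, 80.8 to 1402 and 37.8 to 141 for lymphocytes, 1734 to 7863 and 779 to 4123 for macrophages, and 7453 to 44690 and 22180 to 39630 for adipocytes. Against HET, 9 of 13 macrophage, 8 of 9 lymphocyte and 3 of 3 neutrophil markers rose and 3 of 8 adipocyte markers fell. The part of these cells in the values of Mcam and Slc16a5 was not tested.

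Slc16a5 stood at 1.74, 1.49, 1.90 and 1.65 CPM in WT and at 4.49, 3.08, 2.12, 4.25 and 3.06 in KO adipose tissue on chow, every KO mouse above every WT mouse. The log2 fold change was 1.01 ± 0.38 against WT (edgeR adjusted p = 0.066), and passed without KO replicate 3 (adjusted p = 0.027). Against HET it was 0.96 ± 0.32 (adjusted p = 0.017, 1.95-fold higher), a call that was lost without KO replicate 1 (adjusted p = 0.055) or 4 (adjusted p = 0.068). On HFD the order was the other way, 2.24 ± 0.70 CPM in KO and 3.73 ± 2.66 in WT (log2 -0.73 ± 0.27, adjusted p = 0.33). The KO difference on HFD less that on chow was -1.74 ± 0.47 for Slc16a5 (adjusted p = 0.021, where 6.33% of genes were called), and was not called for the other 5 genes.

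**Figure D4:**
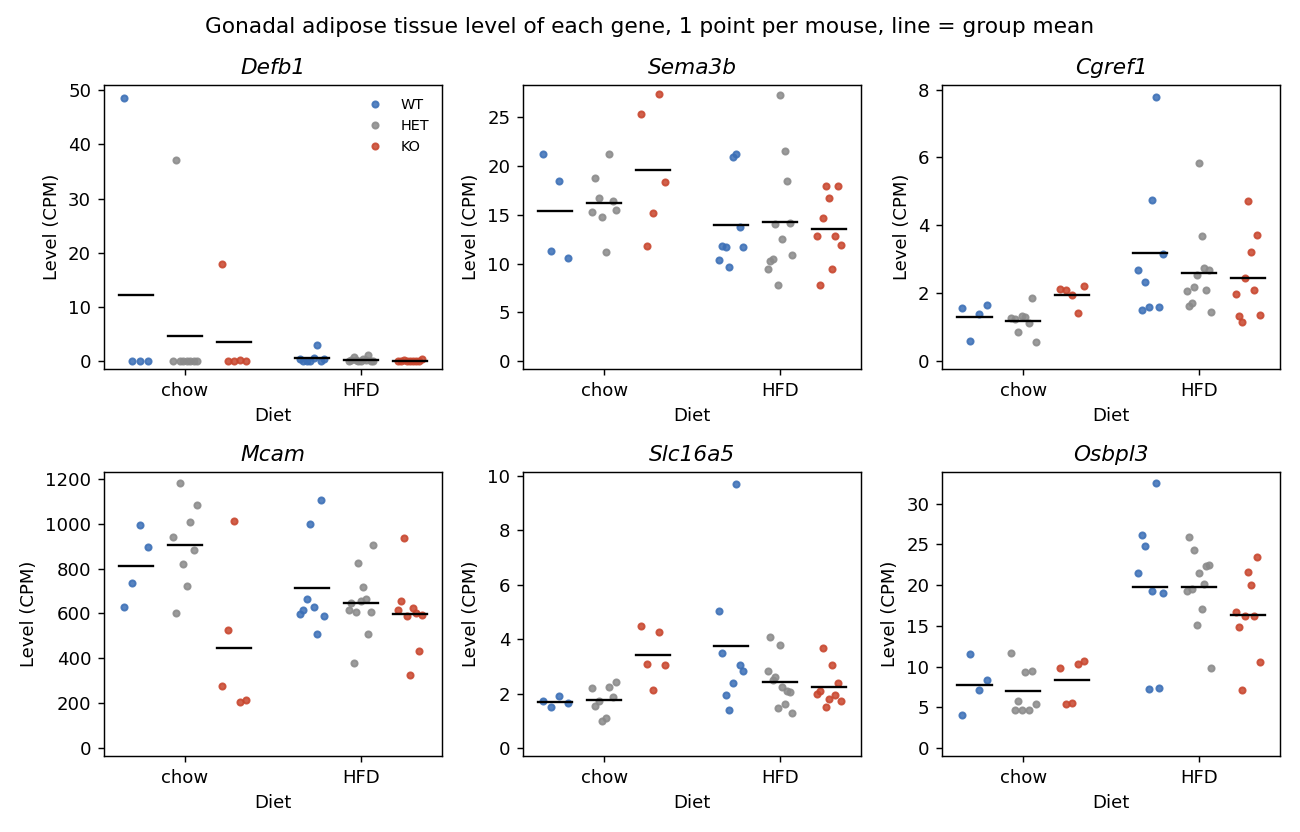
Level of each gene in gonadal adipose tissue in CPM (linear axis), 1 point per mouse by diet and genotype, with lines at group means. Of the KO points for Mcam on chow 4 of 5 lie under every WT point, Osbpl3 lies higher on HFD than on chow in all genotypes, and Defb1 is near 0 but for 3 chow libraries.

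The HFD raised Osbpl3 in adipose tissue of every genotype: 2.49-fold in WT (log2 1.32 ± 0.34, edgeR adjusted p = 0.03, where 4.57% of genes were called), 2.79-fold in HET (1.48 ± 0.26, adjusted p = 5.6e-05, where 34.4% were) and 1.89-fold in KO (0.92 ± 0.31, adjusted p = 0.017, where 35.5% were). In HET mice 11 of 11 on HFD lay above the chow mean and 10 of 11 above every chow mouse. The WT call was lost without chow WT replicate 2 (adjusted p = 0.16) or 4 (adjusted p = 0.059) and in a fit of only the 2 groups (adjusted p = 0.22), and the KO call without chow KO replicate 2 (adjusted p = 0.055). Cgref1 rose 2.12-fold in HET (log2 1.08 ± 0.31, adjusted p = 0.0064), with 8 of 11 mice above every chow mouse. Macrophage markers moved in HET and KO mice alongside: 9 of 13 rose in HET (Gpnmb 12.7-fold, adjusted p = 1.7e-05), 4 rose and 3 fell in KO (Gpnmb 21.2-fold higher, adjusted p = 2.3e-05), and none passed in WT. In HET 6 of 9 lymphocyte markers also rose and 5 of 8 adipocyte markers fell, and in KO 5 of 9 lymphocyte and 3 of 3 neutrophil markers fell. The macrophage sums on HFD and chow were 3524 to 9086 and 628 to 2646 CPM in HET, 1782 to 11510 and 1734 to 7863 in KO, and 1191 to 7880 and 779 to 4123 in WT, and the part of these cells was not tested.

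Defb1 in adipose tissue was read in few libraries. On chow it stood at 48.5 CPM in WT replicate 2, 37.0 in HET replicate 2 and 18.0 in KO replicate 1, and at 0.203 CPM or less in the other 14. The same 3 libraries held 14890, 12650 and 11710 CPM of summed epididymis markers, against 44.5 CPM or less in the others on chow. Its lower calls on HFD in HET (log2 -4.11 ± 1.38, edgeR adjusted p = 0.019) and KO mice (-5.61 ± 1.83, adjusted p = 0.015) rest on those libraries. The part of epididymal tissue in these values was not tested.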

How the data were processed

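Liver and gonadal adipose RNA of single mice was sequenced from stranded mRNA libraries as single-end reads, per the labels' protocols. The submitters' processing notes name STAR 2.5.1b, featureCounts 1.5 and GRCm38.p5. Neither the annotation release nor the strand option is stated in any source used here. The authors deposited raw read counts per Ensembl gene, 1 table per tissue, per the file headers and the whole numbers they hold. Of 121 labelled samples 120 had a column, and 1 unlabelled column was not used; adipose chow WT replicate 1 was not analysed here. Symbols came from GENCODE M21, and 36 of 25759 genes had none.

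The counts were fitted in R 4.3.3 with edgeR 4.0.16 (expression filter with minimum count 10 and total 15, TMM scaling, quasi-likelihood test, two-sided) in 3 fits, those of the chow and HFD livers, of the Control and Alios livers, and of adipose tissue. Benjamini-Hochberg adjustment ran over all 11064, 11595 or 14536 genes of a comparison, with calls made under 0.05. SE was the log2 fold change over the root of the F statistic, and 95% intervals are normal ones built from it. CPM used TMM-scaled totals over all libraries of a tissue. Correlations used log2(CPM + 0.5), 100000 resamples and SciPy 1.17.1. No libraries of a group agreed within sampling noise. P-values measure the spread between mice. KO on Control, a single library, entered no test.

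The test was checked on simulated counts. Alternatives were DESeq2 1.42.0, RLE size factors, other filters and thresholds, fits of only the groups compared, a block for the replicate number, a covariate for mouse number, and libraries left out. The replicate numbers did not pair the mice. The named genes are the 6 genes, Pepd, the 10 genes most like their mean pattern and the 3 most like each, and up to 3 called genes of each list by adjusted p. The genes and lists were chosen with earlier results of these data known.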

Additional observations from a re-analysis of the deposited data

Results flagged for a closer look

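Of 90 sets of values tested (a gene in a group of 4 to 10 mice), 9 held a mouse whose gap to the nearest other mouse was a large share of the group's range by Dixon's test at 95%. Chance flags about 1 in 20 such sets where values are normally distributed. The values here were CPM without a log, which can be skewed, and each flagged mouse was the highest of its group. In liver on chow, Slc16a5 was at 27.4 CPM in KO replicate 3 (the next highest 6.77) and Osbpl3 at 11.6 CPM in KO replicate 4 (next 3.73). HET replicate 8 on chow was highest for Slc16a5 at 41.9 CPM (next 24.4) and for Mcam at 13.3 CPM (next 8.96). In adipose tissue on chow, Defb1 stood at 48.5 CPM in WT replicate 2, 37.0 CPM in HET replicate 2 and 18.0 CPM in KO replicate 1, the libraries with the epididymis markers. In adipose tissue on HFD, WT replicate 6 was highest for Slc16a5 at 9.72 CPM (next 5.05) and for Defb1 at 3.00 CPM (next 0.594), and this library held 50390 CPM of summed hepatocyte markers, against 3659 CPM or less in the other 7.

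Slc16a5 in adipose tissue was flagged because the KO effect differed between the diets: KO against WT on HFD less that on chow was -1.74 on the log2 scale (edgeR adjusted p = 0.021). Without HFD WT replicate 6 it was -1.38 (adjusted p = 0.038). Over 17 alternatives, all chosen after the result was seen, it ranged from -1.88 to -1.38 with adjusted p of 0.0058 to 0.062, and passed in 13; it missed the threshold without chow KO replicate 4, without chow WT replicate 3 or 5, and without the 3 libraries with epididymis markers.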

How the results depend on the processing

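Of the counts of called genes or correlations recomputed under the alternatives, 194 stayed within 1.5 times the reported count and 57 did not. Of the values of single genes and correlations, 1406 stayed the same, 43 no longer passed, 12 newly passed and 4 changed sign. For tested values, the same means the same side of the threshold. For values given with no test, it means a shift smaller than the SD between mice within groups. In HET livers, 4 or 5 of the 6 genes were called as higher on HFD in all 10 settings.

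With an adjusted p under 0.01, the number called became 1 for KO against WT in HFD and in Alios livers, 1 for KO against HET in adipose tissue on chow, and 0 in adipose tissue for KO against WT on chow and for HFD against chow in WT and KO mice. DESeq2 called 1 for KO against WT and 1 against HET in chow livers, and for the adipose diet comparison 3 in WT and 1 in KO mice; its log2 value for Defb1 in HET adipose tissue was 18.8, of the other sign, with no adjusted p given. RLE size factors and no filter each left 0 for KO against WT in chow adipose tissue. A fit of only the groups compared called 1 for KO against WT in HFD livers, 1 against HET in chow livers, and in adipose tissue 0 for KO against WT and 1 against HET on chow, with 0 in WT and 1 in KO mice for the diet. Without the 3 libraries with epididymis markers, chosen after seeing the data, those 4 adipose counts were 0, 1, 0 and 1. Among mice numbered under 450, 3 correlations passed. The cause of these changes was not tested.

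Same-numbered mice did not deviate together: in none of 24 comparisons were all pairs correlated above 0.1. With the replicate number as a block, the counts were 3 for KO against WT in HFD livers, 1 in Alios livers, 0 in chow adipose tissue, and 0 in WT and 4 in KO adipose tissue for the diet; Mcam in HET livers on HFD stood at 0.49 (edgeR adjusted p = 0.12).

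Leaving out single libraries, the counts ranged from 1 to 6 for KO against WT in Alios livers and from 1 to 5 in HFD livers. They ranged from 0 to 1 for KO against WT and against HET in chow livers, for Alios against Control in HET livers and for the diet in WT adipose tissue. In adipose tissue they were 0 to 2 for KO against WT and 1 to 2 against HET on chow, and 1 to 5 for the diet in KO mice. The correlations passing numbered 10 without the mouse labelled HET. Sema3b between KO and WT chow livers ranged from -0.41 to 0.50, changing sign without WT replicate 4 (0.50), KO replicate 2 (0.025) or KO replicate 4 (0.088). Depth limits Defb1, Sema3b and Cgref1 on chow most, where levels near 1 CPM are a few reads.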

Other observations

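After the values of HET mice on HFD had been seen, the relation to the lipid droplet and Pparg genes was also computed within 5 other liver groups of 6 or more mice. In 8 HET mice on chow, the group among these that took no part in choosing the genes, Osbpl3 had r = 0.58 (exact permutation p = 0.135, adjusted p = 0.307 over 30 relations), rho = 0.214 (exact p = 0.619), and r = 0.741 without the 2 farthest mice. The other groups hold WT and KO libraries on HFD and Alios, so their values are a description with no test. Osbpl3 had r = 0.897 in 8 WT mice on HFD (0.513 without the 2 farthest mice), 0.839 in 9 KO mice on HFD (0.942), 0.77 in 6 WT mice on Alios (0.383) and 0.951 in the 7 deeper KO libraries on Alios (0.991). Slc16a5 had r = -0.01 in WT mice on HFD and 0.978 in the 7 Alios KO libraries.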
